A study of Homo sapiens with 41 samples.

Results

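The noncoding snoRNA host genes examined here were SNHG1, SNHG3, SNHG5, SNHG6, SNHG7, SNHG8, SNHG12, SNHG15, SNHG16 and GAS5. They are 10 of the 64486 genes in the annotation, chosen by name, and a peak was counted for a gene when it overlapped the annotated gene or the 1 kb on either side of it. Elongin A is a subunit of Elongin, a complex first described by its stimulation of RNA polymerase II elongation in vitro. It was mapped in DLD1 cells, a human colon cancer cell line, all of them wild type and not treated with siRNA. CUT&RUN (antibody-directed cleavage and release of chromatin fragments) was carried out on formaldehyde-fixed cells with a goat antibody in 2 replicates, with a mouse antibody in 1 sample, and with 1 goat and 1 mouse IgG control. ChIP-seq was carried out with 1 Elongin A sample and 1 input. Each antibody or assay has its own deposited peak list, of 8720 peaks for the goat antibody, 2338 for the mouse antibody and 186 for ChIP-seq. The lists hold no value per replicate, so no difference below could be set against replicate error and none was tested. Read totals are not given in the sources used here, so the depth behind a peak, or behind its absence, is unknown. All samples are of the same cell line, and peaks at colon epithelial markers were present at 5 of 9 genes in the goat list, CDX2, EPCAM, KRT8, KRT18 and HNF4A, at 2 of 9 in the mouse list and at 0 of 9 in the ChIP-seq list. The colon markers CDX1, VIL1, KRT20 and CDH17 had no peak in any list. Of 4 markers of other cells, PTPRC had peaks in both CUT&RUN lists and CD3E, COL1A1 and ALB had none. PECAM1 was also planned as a marker of other cells but was not counted. A peak reports the factor on chromatin and not the RNA.

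Small nucleolar RNAs (snoRNAs) guide chemical modification of ribosomal and other RNAs: box C/D snoRNAs direct methylation of the ribose, and H/ACA snoRNAs direct conversion of uridine to pseudouridine. Most human snoRNAs are not transcribed on their own but are cut out of the introns of a host transcript after splicing. In the host genes described here the spliced exons encode no known conserved protein, and several of the hosts, GAS5 among them, start with an oligopyrimidine tract like that of ribosomal protein mRNAs and are degraded during translation. By RefSeq the 10 hosts carry 36 snoRNA entries. GAS5 has 11 and SNHG1 has 9, while SNHG6, SNHG8 and SNHG15 have 1 each. SNHG1, SNHG5, SNHG6 and SNHG16 carry box C/D snoRNAs, SNHG3, SNHG7, SNHG8 and SNHG15 carry H/ACA snoRNAs, and SNHG12 and GAS5 carry both kinds.

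The places where both antibodies put their summits closest together, the point of highest signal in a peak, are shown first because they are the positions that the lists share most closely. In GAS5 the summit of a goat antibody peak lay 32 bp from the nearest of 4 mouse antibody summits inside that peak. Both were in an intron near the middle of the transcript. The other mouse antibody summits inside it were 680, 993 and 2829 bp from the goat summit. In SNHG5 the goat and mouse summits lay 73 bp apart upstream of the gene. In the following stretches (GRCh37, the strand of the host gene), the bases from summit to summit are in capitals, at chr1:173832612-173832704 for GAS5 and chr6:86388725-86388858 for SNHG5.
GAS5: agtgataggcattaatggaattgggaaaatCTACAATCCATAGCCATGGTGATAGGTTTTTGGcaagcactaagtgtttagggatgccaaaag
SNHG5: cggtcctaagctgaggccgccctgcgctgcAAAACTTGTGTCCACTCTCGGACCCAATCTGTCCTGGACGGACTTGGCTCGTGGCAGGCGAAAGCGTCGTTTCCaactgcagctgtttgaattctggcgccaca

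Only 4 of the 36 snoRNAs are placed in the GRCh37 annotation, and 3 of these lay inside a goat antibody peak: SNORD78 of GAS5 at chr1:173834760-173834824, SNORD99 of SNHG12 at chr1:28905261-28905334 and SNORA73B of SNHG3 at chr1:28835071-28835274. SNORA73B also lay inside a mouse antibody peak. The fourth, SNORD1B of SNHG16, was outside every peak. SNORD78 and SNORA73B lay in goat antibody peaks of 6686 and 5984 bp, which covered 70.5% of the GAS5 and 78.2% of the SNHG3 transcript. The share of all placed snoRNAs that lay inside a peak was not counted, so nothing is drawn from 3 of 4. The 3 sequences inside peaks are shown with the D box letters CTGA in capitals for the box C/D snoRNAs and the ACA near the end in capitals for the H/ACA snoRNA. The nearest goat summit was 2118 bp from the middle of SNORD78, 852 bp from that of SNORD99 and 2024 bp from that of SNORA73B, so no summit fell on any of them.
SNORD78: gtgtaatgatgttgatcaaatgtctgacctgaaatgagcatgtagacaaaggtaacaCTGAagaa
SNORD99: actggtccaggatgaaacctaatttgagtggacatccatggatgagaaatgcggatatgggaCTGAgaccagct
SNORA73B: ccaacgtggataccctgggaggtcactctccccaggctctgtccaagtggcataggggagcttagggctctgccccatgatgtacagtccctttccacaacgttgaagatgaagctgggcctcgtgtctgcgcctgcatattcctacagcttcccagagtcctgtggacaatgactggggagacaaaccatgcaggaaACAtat

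With the goat antibody, 9 of the 10 hosts had a peak, 21 peaks in all, and SNHG15 was the exception. Over all genes of the annotation 9.89% had a goat antibody peak by the same count. Among lncRNA genes with spans in the range of the 10 hosts (3943 to 113259 bp) the share was 8.98%, and among protein-coding genes in that range it was 19.7%. None of these groups, here or below, was matched to the hosts by expression, and they include genes of any expression level. The paper reports that Elongin A signal tends to be stronger at more highly expressed genes. The part of expression in these differences was not tested. With the mouse antibody, 6 of 10 hosts had a peak, against 3.54% of all genes, 3.37% of lncRNA genes and 6.96% of protein-coding genes in the span range. These 6, SNHG1, SNHG3, SNHG5, SNHG12, SNHG16 and GAS5, also had goat antibody peaks, and over all genes 2.09% had a peak in both lists. This count does not require the peaks to overlap. The SNHG16 mouse antibody peak, with its summit 53101 bp past the start, overlapped neither goat antibody peak of that gene. Its −log10 q-value was 1.36, and it ranked 1605 of 2338 by fold enrichment. With stricter q-value cutoffs 5 hosts had a mouse antibody peak, and SNHG16 was not among them. ChIP-seq gave 0 of 10 hosts with a peak, against 0.381% of all genes. The paper describes enrichment in its Elongin A ChIP-seq as inefficient. With so low a share of all genes, 0 of 10 cannot tell whether the assays differ at these hosts. By snoRNA class, all 4 box C/D hosts, both mixed hosts and 3 of 4 H/ACA hosts had a goat antibody peak, and 3, 2 and 1 of them had a mouse antibody peak.

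**Figure D1:**
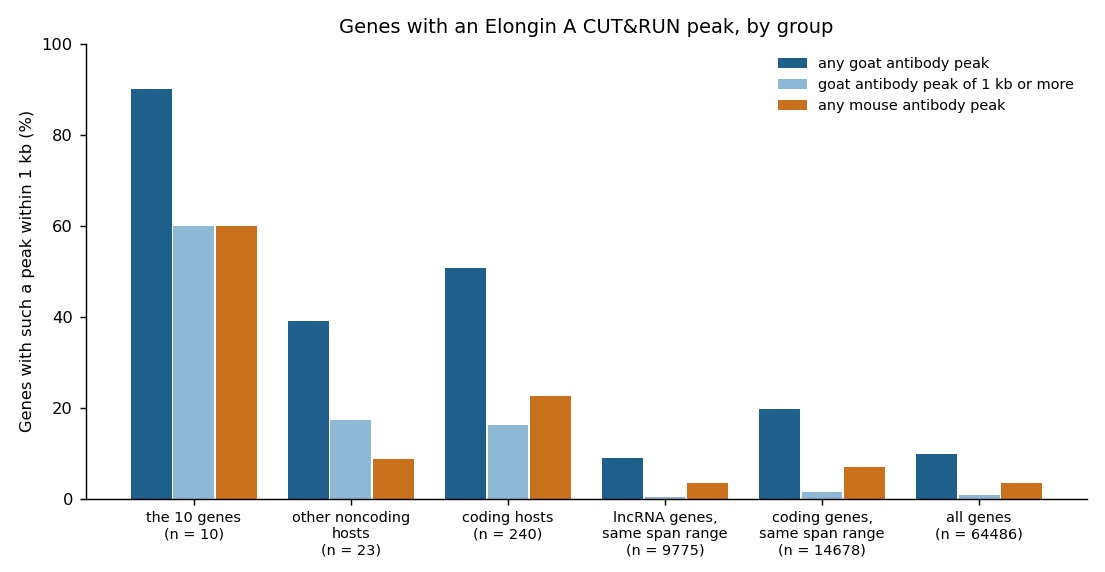
Percentage of genes in each group (y axis) with a goat antibody peak, a goat antibody peak of 1 kb or more, or a mouse antibody peak within 1 kb; bars are shares of genes, with no error since each list is 1 set of peaks. The 10 hosts stand at 90% for the goat and 60% for the mouse antibody, against 39.1% and 8.70% of the 23 other noncoding hosts. These 23 were taken by name, without a check that each holds a snoRNA.

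The goat antibody peaks at the hosts were mostly in the upper part of their list. Their fold enrichment over the control background ran from 3.75 to 15.9 with a median of 5.15, beside a median of 4.32 and a maximum of 43.6 for the list. Of the 21 peaks, 17 were above the list median and 8 were in its top decile, and the median host peak stood at percentile 72.3. Host peaks were also wide. Their median width was 728 bp against 362 bp for the list, and 6 of 21 reached 1 kb, as did 393 peaks or 4.51% of the list. These 6 wide peaks belonged to SNHG1, SNHG3, SNHG5, SNHG8, SNHG12 and GAS5, so 6 of 10 hosts had a wide peak, against 0.797% of all genes. In all, the goat antibody peaks at the hosts covered 30752 bp.

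**Figure D2:**
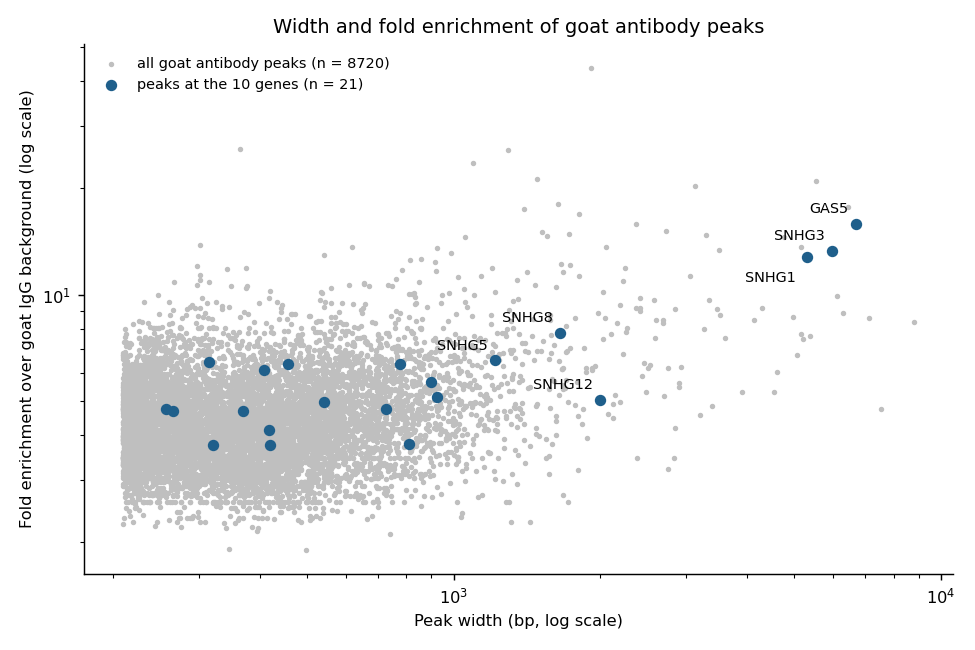
Width (x axis, bp, log scale) against fold enrichment over goat IgG (y axis, log scale) for the 8720 goat antibody peaks, in grey, and the 21 peaks at the host genes, in blue, with the 6 of 1 kb or more named. GAS5, SNHG3 and SNHG1 sit together at the upper right, between 5303 and 6686 bp wide and between 12.8-fold and 15.9-fold enriched.

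GAS5, SNHG3 and SNHG1 stood apart from the other hosts. GAS5, a growth arrest transcript named for its rise in arrested cells, had the strongest host peak: 6686 bp at chr1:173830790-173837475, with fold enrichment 15.9, rank 12 of 8720 by fold enrichment and 4 by width. SNHG3 followed with 5984 bp at chr1:28833562-28839545, fold enrichment 13.3 and rank 27. SNHG1 had 5303 bp at chr11:62617924-62623226, fold enrichment 12.8 and rank 30. Thus 3 of 10 hosts had a peak among the 100 with the highest fold enrichment, against 0.27% of all genes, and the same 3 had peaks of 5 kb or more, of which the whole list has 15. Of those 15 peaks, 7 overlapped a snoRNA host gene, coding hosts included, as did 59 of the 393 peaks of 1 kb or more and 4.48% of all goat antibody peaks. These counts include the 10 hosts themselves, which gave 3 of the 7 and 6 of the 59.

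The 3 long peaks covered the hosts in different ways. In SNHG1 the peak began 168 bp past the annotated start, ran through the gene and ended 1526 bp past its end, covering 95.7% of the transcript. Its summit was in the last exon, 11 of 11, 352 bp before the transcript end. In SNHG3 the long peak began 1070 bp past the start and ended 2141 bp past the end, with its summit in the last exon, 208 bp before the end. With a second peak at the start, 86.5% of the SNHG3 transcript was covered. In GAS5 the long peak began 348 bp upstream of the start and stopped 2655 bp before the end, with its summit at 49.5% of the transcript length, and covered 70.5% of the transcript. A second GAS5 peak of 542 bp, chr1:173829294-173829835, with fold enrichment 4.97, lay in an intron nearer the end, and both together covered 76.5%. These were the 3 of 10 hosts with at least 50% of their length in goat antibody peaks, against 0.257% of all genes. SNHG1, SNHG3 and SNHG12 were the 3 of 10 hosts with a peak over the transcript end, against 0.54% of all genes, and in these 3 the whole first 1 kb past the end was covered.

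The bases under the summit of the long SNHG3 peak are shown because it lies in the last exon, close to the transcript end. The capitals mark the 32 bp centred on the summit, at chr1:28837146-28837245, and this 32 bp stretch occurs 1 time in the genome.
SNHG3: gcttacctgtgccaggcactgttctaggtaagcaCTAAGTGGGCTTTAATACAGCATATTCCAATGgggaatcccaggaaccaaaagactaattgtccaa

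**Figure D3:**
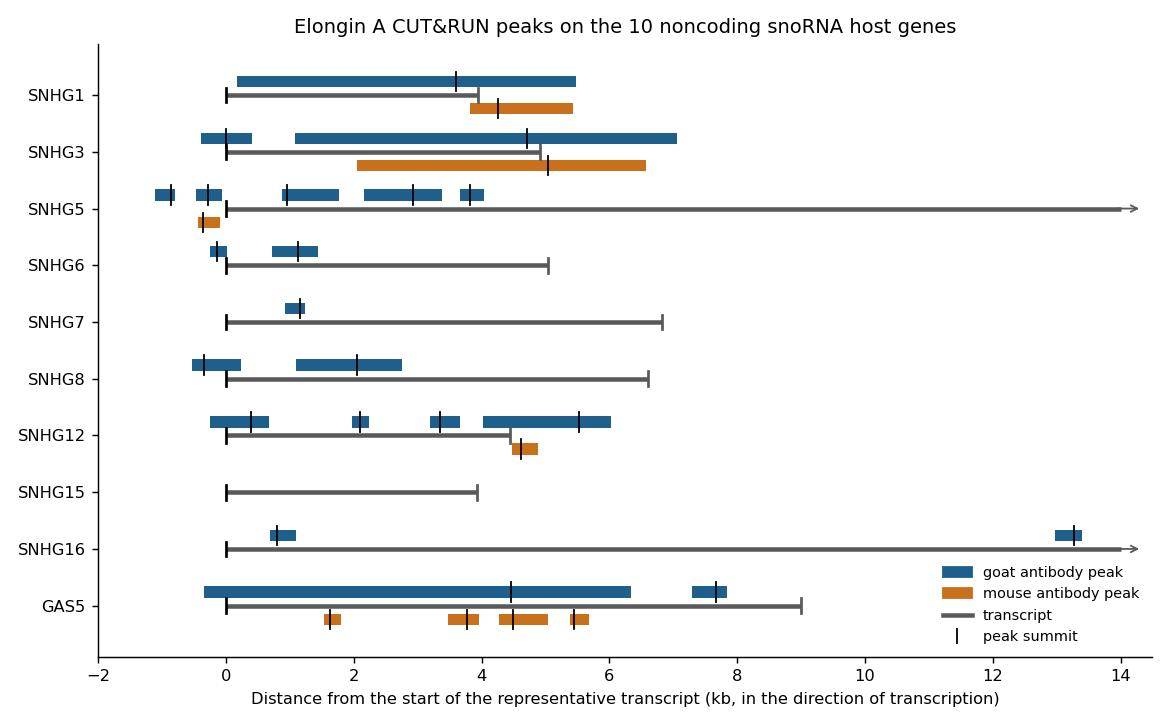
Peaks of both CUT&RUN lists on the 10 hosts, by distance from the start of the representative transcript (x axis, kb), with goat antibody peaks above and mouse antibody peaks below each transcript line; vertical ticks mark summits, and arrows mark SNHG5 and SNHG16, whose transcripts run past the axis. Long peaks extend past the ends of SNHG1 and SNHG3, SNHG5 peaks gather near its start, and SNHG15 has none; the SNHG16 mouse antibody peak, with its summit 53101 bp from the start, is off the axis.

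The mouse antibody peaks at the same 3 genes were in part of the same ground. At SNHG3 the mouse antibody peak was 4536 bp, chr1:28834536-28839071, the widest of the 2338 in its list, although its fold enrichment of 4.87 ranked 713. It lay wholly inside the long goat antibody peak, and its summit was 129 bp past the transcript end and 337 bp from the goat summit. At SNHG1 the mouse antibody peak covered 1609 bp over the transcript end, with fold enrichment 6.09 and rank 165, and its summit 304 bp past the end was 656 bp from the goat summit. GAS5 had 4 mouse antibody peaks, with fold enrichments of 3.84, 4.67, 5.03 and 4.70, and all of them lay inside the long goat antibody peak. The mouse antibody peaks covered 58.4% of the SNHG3 transcript, 19.98% of GAS5 and 3.22% of SNHG1. Fold enrichments were not compared between the lists, which were called separately; which IgG control served for the mouse antibody list is not given in the sources used here.

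**Figure D4:**
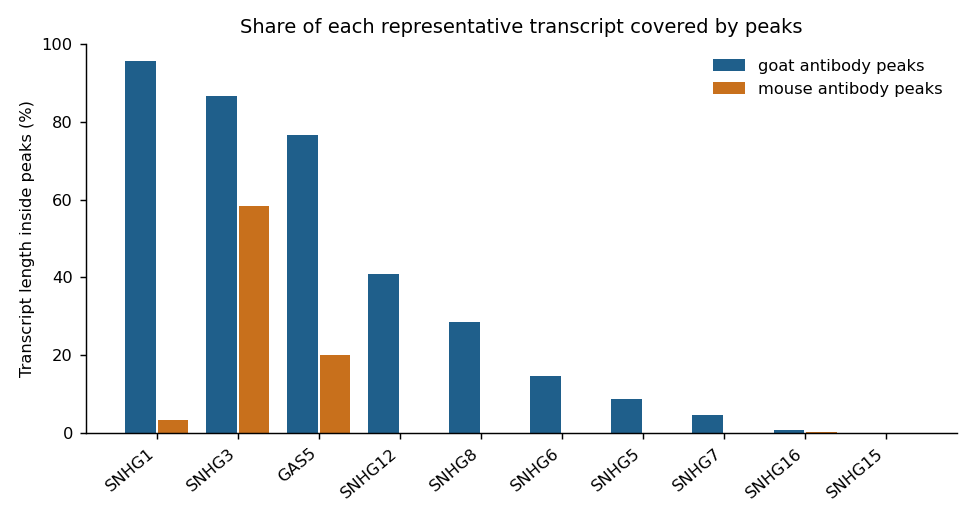
Share of the representative transcript of each host (y axis, %) that lay inside goat antibody peaks (blue) and mouse antibody peaks (orange). SNHG1, SNHG3 and GAS5 exceed 50% with the goat antibody, and SNHG3 does so with the mouse antibody.

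The other box C/D hosts had shorter peaks. SNHG5 had the most peaks, 5 with the goat antibody, with fold enrichments of 3.75 and 4.14 upstream of the start and of 5.68, 6.51 and 4.69 within the first 4032 bp of a transcript of 28258 bp. The widest of them was 1217 bp and ranked 766. The mouse antibody gave 1 SNHG5 peak of fold enrichment 4.55, wholly inside the goat antibody peak at chr6:86388526-86388942; the mouse summit was 362 bp and the goat summit 289 bp upstream of the start. SNHG6 had a peak of 257 bp over its start, with fold enrichment 4.76, and a peak of 728 bp in an intron, with fold enrichment 4.74. SNHG16 had goat antibody peaks at chr17:74554549-74554957 and chr17:74566839-74567257 with fold enrichments of 6.12 and 3.76, with summits 789 and 13279 bp past the start, and its mouse antibody peak of fold enrichment 3.89 overlapped neither of them. These hosts were covered over 8.79% (SNHG5), 14.6% (SNHG6) and 0.731% (SNHG16) of their transcripts.

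SNHG12, which carries both kinds of snoRNA, had 4 goat antibody peaks spread along 4449 bp of transcript, with fold enrichments of 5.15 at the start, 4.70 and 6.36 within the gene and 5.04 over the end. The last was 2001 bp wide, chr1:28903480-28905480, and held SNORD99. The mouse antibody peak inside it was the highest ranked of its list at any host, 78 of 2338 with fold enrichment 6.61, and its summit was 171 bp past the transcript end. The goat summit in the same peak was 900 bp from it, 1071 bp past the end. This peak also overlapped TRNAU1AP, a gene for a protein that binds selenocysteine tRNA, which runs on the opposite strand.

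Of the hosts with only H/ACA snoRNAs other than SNHG3, SNHG8 had 2 goat antibody peaks and SNHG7 had 1. The SNHG7 peak was 315 bp wide, chr9:139621401-139621715, with fold enrichment 6.45 and rank 805. Its summit, 1151 bp past the start, was in an intron of the representative transcript and in an exon of another annotated transcript. The stronger SNHG8 peak was 1655 bp wide, chr4:119200956-119202610, with fold enrichment 7.77 and rank 271, and it overlapped PRSS12, a protease gene on the opposite strand. The SNHG8 peak over the start, chr4:119199320-119200095, had fold enrichment 6.37 and rank 851. SNHG15, the host of SNORA9 at chr7:45022618-45026560, had no peak in any list, and the nearest goat antibody peak was 106 kb away and the nearest mouse antibody peak 96.9 kb away.

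**Figure D5:**
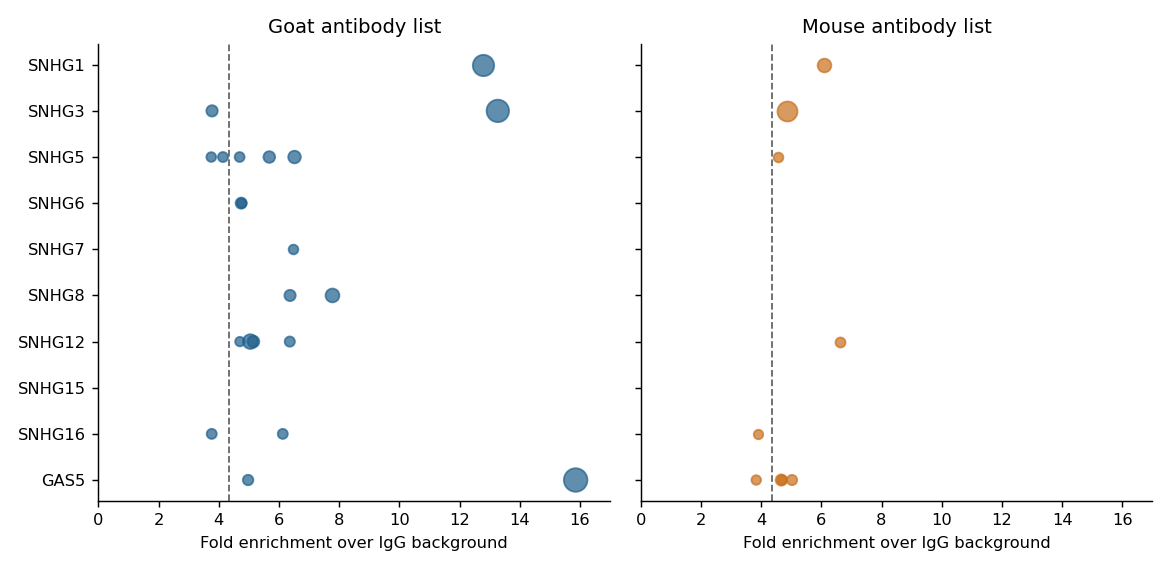
Fold enrichment over the IgG background (x axis) of each peak at each host, for the goat list (left) and the mouse list (right); larger points are wider peaks and dashed lines are the medians of the whole lists, 4.32 and 4.36. The GAS5, SNHG3 and SNHG1 points lie furthest right in the goat list, from 12.8 to 15.9. The mouse antibody points lie between 3.84 and 6.61 on the scale of their own list, whose maximum is 12.1, and are not to be compared with the goat antibody values.

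The SNHG8 peak over the start needs a further measurement beside it. The 32 bp at its summit occur 547 times in the genome, counting both strands, whereas those at the other 29 summits of the 30 host peaks of both antibodies occur 1 time each. The paper's methods state no filter on mapping quality, and the part of repeated sequence in this peak was not tested.

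Position along the gene was then compared, with the windows of the authors' annotation tool applied to the centre of each peak. Of the 21 goat antibody peaks, 5 were classed as promoter, 15 as gene body and 1 as transcript end, the last at SNHG12. The promoter peaks belonged to 4 of 10 hosts, SNHG3, SNHG5, SNHG6 and SNHG8, against 2.68% of all genes with a peak centre in the promoter window. By summit, 11 peaks were in an intron of the representative transcript, 4 in an exon and 6 outside the transcript. The intron summits of SNHG5, SNHG7 and SNHG12 lay in an exon of another annotated transcript of the same gene. So did the SNHG16 summit 789 bp past the start, while those of SNHG6 and GAS5 and the other SNHG16 summit did not. A goat antibody peak overlapped the annotated start of 5 of 10 hosts, SNHG3, SNHG6, SNHG8, SNHG12 and GAS5, against 1.07% of all genes. These classes depend on the transcript chosen. GAS5 has 91 annotated transcripts, SNHG5 89 and SNHG1 80, and with the windows of every transcript 8 of 10 hosts had a promoter peak, against 3.81% of all genes, and 5 rather than 15 peaks were left as gene body.

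RefSeq places several of the starts elsewhere. Promoter sequences of 300 bases were found in RefSeq (GRCh38.p14) for 8 hosts, and each matched the chromosome of its gene in GRCh37 at 1 place. SNHG6 and SNHG15 had no entry. The RefSeq start was 1113 bp downstream of the start used above for SNHG12 and 1056 bp upstream for GAS5, and within 54 bp for the other 6. A goat antibody peak covered 2 of the 8 RefSeq starts, those of SNHG3 and SNHG8, against 2.06% of the 25278 RefSeq starts that could be placed on GRCh37 by an exact match near the gene of the same symbol. At the other 6 the nearest peak edge was 75 bp (SNHG5), 131 bp (SNHG1), 449 bp (SNHG12), 703 bp (SNHG16), 708 bp (GAS5) and 921 bp (SNHG7) away. The starts of SNHG12 and GAS5, counted as covered above, were thus not covered at their RefSeq positions.

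The RefSeq starts of SNHG12, SNHG5, SNHG7 and SNHG1 are shown from 30 bases before the start, because these hosts begin with a C followed by pyrimidines. The run of pyrimidines from the start is in capitals, and the stretches are chr1:28908356-28908415, chr6:86388422-86388481, chr9:139622607-139622666 and chr11:62623328-62623387. The annotated start of GAS5 used above, at chr1:173837098-173837157, is added.
SNHG12: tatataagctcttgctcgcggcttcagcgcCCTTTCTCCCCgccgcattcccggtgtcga
SNHG5: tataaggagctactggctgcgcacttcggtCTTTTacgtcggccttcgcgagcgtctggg
SNHG7: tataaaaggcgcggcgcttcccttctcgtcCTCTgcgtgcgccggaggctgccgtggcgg
SNHG1: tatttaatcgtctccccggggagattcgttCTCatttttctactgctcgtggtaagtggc
GAS5: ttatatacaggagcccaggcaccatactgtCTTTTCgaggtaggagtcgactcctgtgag

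By the definition used here, a C at the start followed by at least 4 pyrimidines, 2 of the 8 RefSeq starts, those of SNHG12 and SNHG5, had a terminal oligopyrimidine tract, against 4.07% of 35116 RefSeq promoters. SNHG7, with a run of 4, and SNHG1, with a run of 3, fell short. At the starts used for the peak classes, GAS5 and SNHG12 met the definition, against 2.67% of all annotated starts. The 8 promoters held a median of 29.5 CpG dinucleotides, from 5 at the RefSeq start of GAS5 to 43 at SNHG7, beside a median of 14 over all RefSeq promoters. On either strand, the word GGGCGG was found in 6 of 8 and in 44.95% of all promoters, CCAAT in 2 and 34.6%, TATAAA in 2 and 11.5%, CACGTG in 1 and 7.26%, AAGATGG in 1 and 5.84%, and CCGGAAG in 0 and 10.3%. The words found depend on the start chosen. In the 300 bases at the starts used for the peak classes, CCGGAAG was found at SNHG3 and SNHG6, and CACGTG also at GAS5. There GGGCGG was found at GAS5 but not at SNHG12, TATAAA not at SNHG1 and CCAAT not at GAS5. These are matches of letters and nothing was drawn from them about any factor.

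The lists were then set side by side at the hosts. Of the 21 goat antibody peaks, 5 overlapped a mouse antibody peak by at least 1 bp, at SNHG1, SNHG3, SNHG5, SNHG12 and GAS5, against 8.33% of all goat antibody peaks. Those at SNHG1, SNHG3, SNHG12 and GAS5 were 5303, 5984, 2001 and 6686 bp wide. A wide peak can meet another by 1 bp more easily, and the share of all peaks was not matched for width. Of the same 21 peaks, 3 had a mouse antibody summit within 500 bp, at SNHG3, SNHG5 and GAS5, against 8.51% of all goat antibody peaks. At GAS5 this was the nearest of 4 mouse antibody summits inside a peak of 6686 bp. Of the 21, 0 overlapped a ChIP-seq peak, against 0.837% of all goat antibody peaks. The nearest ChIP-seq peak to any host was 10.1 kb from SNHG1 and was the strongest of the ChIP-seq list, with fold enrichment 47.1. For the other hosts the nearest ChIP-seq peak was between 65.3 kb (SNHG12) and 35243 kb (SNHG8) away.

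Neighbouring genes share some of these peaks. RCC1, the guanine nucleotide exchange factor for Ran, lies on the same strand as SNHG3 and overlaps both SNHG3 peaks, and a RCC1 start lay within 1 kb of the first. ZBTB37, a zinc finger gene transcribed away from GAS5, overlapped the long GAS5 peak. Peaks at 6 of 10 hosts, GAS5, SNHG3, SNHG5, SNHG8, SNHG12 and SNHG16, overlapped a protein-coding gene, among them ST6GALNAC2 at SNHG16. Without these 6 hosts, 3 hosts with 4 goat antibody peaks remained, SNHG1, SNHG6 and SNHG7, and 1 host, SNHG1, with a mouse antibody peak. How much of a shared peak belongs to either gene cannot be told apart in these lists.

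Other genes counted as snoRNA hosts gave a reference. The noncoding ones were lncRNA genes taken by name, without a check that each holds a snoRNA. The coding ones were protein-coding genes that hold, on the same strand, a snoRNA placed in the GRCh37 annotation. That annotation places only 4 of the 36 snoRNAs of the 10 hosts, so the groups were not drawn alike. Of 23 other noncoding hosts, 9 had a goat antibody peak, 2 a mouse antibody peak and 1 a ChIP-seq peak, and the strongest goat antibody peaks were at SNHG29 (fold enrichment 13.4, rank 26), SNHG25 (11.9, rank 37) and ZFAS1 (8.48, rank 176). Of 240 protein-coding hosts, 122 had a goat antibody peak and 54 a mouse antibody peak, and the strongest were EIF4A2, a translation initiation helicase (21.0, rank 6), NCL, which encodes nucleolin (17.6, rank 9), and RPS2, a ribosomal protein gene (14.8, rank 16). A goat antibody peak of 1 kb or more was found at 17.4% of the other noncoding hosts and 16.3% of the coding hosts, whose median span of 48.4 kb was longer than the 6.23 kb of the 10 hosts. RCC1 is itself among the coding hosts and shares its 2 SNHG3 peaks with the 10 genes. The 10 hosts were listed by name with earlier results of these data known, so the gap between them and the 23 others was not tested.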

How the data were processed

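Elongin A was mapped in DLD1 cells by CUT&RUN and ChIP-seq. For alignment to hg19 the authors used Bowtie2 (v2.3.4.1, local mode), for the removal of duplicates Picard (v1.88), and for peak calling MACS2 (v2.1.1) with its defaults. The methods name goat IgG as the CUT&RUN control, the labels also list mouse IgG, and how the 2 goat antibody replicates were combined is not stated. The deposited fold enrichment of a peak is a ratio, that of its summit to the control signal nearby, from the authors' peak calling. The deposited −log10 q-value comes from the same tool and served for the stricter lists. The deposited score was not used. The deposited other columns hold each peak's position and summit.

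Genes came from GENCODE release 44 on GRCh37, the build also called hg19, with positions counted from 1. Peaks were assigned by an overlap of at least 1 bp with the gene and 1 kb either side. The representative transcript is the Ensembl canonical one. The promoter window ran from 1000 bp upstream to 100 bp downstream of its start and the end window from 100 bp upstream to 1000 bp downstream of its end. Named genes are the 10 hosts, coding genes overlapping their windows or with a start within 1 kb of their peaks, snoRNAs inside their peaks and, in the other noncoding and the coding hosts, the 3 genes with the highest goat antibody fold enrichment. The members and lists were chosen with earlier results of these data known, and the counts of wide peaks, covered starts and ends and shared peaks were chosen after seeing the data. The overlap and class code was tested on simulated peaks. Python 3.11.15, pandas 2.3.3, numpy 2.4.6, pysam 0.24.0, samtools 1.23.1 and matplotlib 3.10.9 were used. Depth per sample is unknown. The sequences under some summits are not reported here. RNA-seq, 4sU-seq and RNA polymerase II ChIP-seq were not analysed here.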

Additional observations from a re-analysis of the deposited data

How the results depend on the processing

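Of 92 values under other settings, 77 stayed within 1.5 times the count reported, or for the percentile within its spread. These 77 include the ChIP-seq counts, which were 0 at the start and could not change under a stricter setting. The number labelled as reversed was 0, but counts of peaks or genes have no direction to reverse. With fold enrichment of at least 5, the goat antibody peaks fell from 21 to 12 (8 hosts), the mouse antibody peaks and hosts to 3 and 3, and the hosts with a promoter peak from 4 to 1. Stricter q-value cutoffs left 5 hosts and 7 peaks with the mouse antibody. Merging peaks within 1 kb left 11 goat antibody peaks. With every annotated transcript, 8 hosts had a promoter peak, 5 peaks were gene body and 6 were transcript end; by summit, or with windows of 500 bp either side, 0 were transcript end. With summits within 500 bp, 3 goat antibody peaks matched a mouse antibody peak instead of 5. Settings chosen after seeing the data left out the 6 hosts whose peaks overlap a coding gene, which gave 3 hosts and 4 peaks with the goat antibody and 1 host and 1 peak with the mouse antibody, or SNHG5 and SNHG16, whose spans exceed 20 kb, which gave 7 hosts and 14 peaks, and 4 hosts and 7 peaks. These changes follow from the settings themselves. Taking coding hosts by RefSeq snoRNAs, 128 of 228 had a goat antibody peak. Unknown depth and the lack of values per replicate limit every count. No paired analysis was possible because each antibody or assay has 1 peak list and no test was made, and no replicate could be left out.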
